A study of Macaca mulatta with 30 samples.

Results

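Microtubules are hollow filaments of alpha- and beta-tubulin dimers, and the genes described here are those of the tubulins, of the enzymes that add amino acids to tubulin, and of the proteins that fold tubulin or bind the filament. They were chosen by gene symbol alone: 47 symbols of the 15521 in the gene table belong to the tubulin (TUB), tubulin tyrosine ligase and ligase-like (TTL, TTLL), tubulin cofactor (TBC), stathmin (STMN), end-binding (MAPRE), microtubule-associated (MAP, MAPT) or EML families. Of these, 43 reached 10 normalized reads in 6 or more libraries and were tested together with the other genes passing that limit, 12935 in all. The gene table does not hold every symbol of these families (TTLL1, STMN3, TUBB2A and TBCD are absent), so rankings below cover the matched genes only. The tissue was cortical area 32 (A32), a medial prefrontal area, dissected from 30 male rhesus macaques with 1 RNA-seq library per animal. Every animal was introduced to 4% ethanol and then had open access to it for more than 12 months, and the comparisons hold no ethanol-naive group.

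The very heavy drinkers (VHD, n = 6) took more than 3 g/kg of ethanol a day on average and passed 4 g/kg on 10% of days or more. Heavy drinkers (HD, n = 7) reached 3 g/kg on at least 20% of days. Binge drinkers (BD, n = 7) reached 2 g/kg on at least 55% of days and had a blood ethanol of 80 mg/dl or more at least once a year. Low drinkers (LD, n = 10) met none of these definitions and were the reference. The animals came from cohort 4 (n = 9, mean age 9.98 years at the end of drinking), cohort 5 (n = 8, 7.15 years), cohort 7b (n = 5, 7.18 years) and cohort 7a (n = 8, 5.7 years). VHD animals belonged to cohort 5 (n = 4) or cohort 7a (n = 2) and LD animals to cohorts 4 (n = 4), 7a (n = 3) and 7b (n = 3), so these categories met directly in cohort 7a alone. HD animals belonged to cohorts 4 (n = 1), 5 (n = 3), 7b (n = 1) and 7a (n = 2). BD animals belonged to cohorts 4 (n = 4), 5 (n = 1), 7b (n = 1) and 7a (n = 1). Counts of animals above or below the LD median, given below, are not adjusted for cohort, so they mix cohort with category.

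Libraries held 4.392 to 13.985 M reads in the measured exons (M, 1000000), and 6 of them had fewer than 6 M (none of VHD, 2 of HD, 3 of BD and 1 of LD). The unit is the normalized read, a read count that the authors scaled to a common upper quartile, 1 sequenced read being worth 0.656 to 2.07 normalized reads. The matched genes took 1.09% to 1.45% of the reads in VHD libraries, 1.3% to 1.52% in HD, 1.27% to 1.43% in BD and 1.26% to 1.5% in LD. Neuronal markers were at high levels in the tissue: 9 of the 10 listed genes, STMN2 among them, summed to 70788 to 79513 normalized reads in VHD, 72165 to 80729 in HD, 72211 to 76551 in BD and 68808 to 78715 in LD. Astrocyte markers were high as well. The 7 listed genes summed to 90355 to 101041 in VHD, 78865 to 93122 in HD, 78407 to 99206 in BD and 79379 to 104168 in LD. Of the 3 listed blood markers, 2 were in the table and neither reached 10 normalized reads in 6 libraries. The samples are bulk tissue, so a lower number of cells of a type and less RNA per cell cannot be told apart in any value below.

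In neurons, microtubules run through axons and dendrites, carry the cargo moved by kinesin and dynein, and give both processes their shape. The tubulin paralogs build the wall, chemical marks written by the TTL and TTLL enzymes influence which proteins bind a filament, and the associated proteins stabilise, bundle or take apart the filament. Tau (MAPT) is best known in axons and MAP2 in dendrites, while stathmins hold tubulin dimers and promote disassembly.

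Several tubulin wall genes stood at high levels and others far lower, given here per kilobase of listed exon so that genes can be compared. Median levels over the 30 libraries were 1655 normalized reads per kb for TUBA1B, 1613 for TUBB, 1470 for TUBA1A and 1451 for TUBB4A, an isotype enriched in brain. TUBB2B (1181), the neuronal class III gene TUBB3 (1053), TUBA4A (1028) and TUBB4B (908) followed on the same per-kb scale. Gamma-tubulin TUBG1, which nucleates new filaments and is not part of the wall, stood at 269 per kb, and TUBA8 at 71.4. Near the detection limit were TUBA3E (6.94), TUBB1 (6.14), the beta-tubulin of platelets, and TUBA1C (5.39 per kb). TUBA1C reached 10 normalized reads in 12 of 30 libraries and TUBA3E in 18, so both only just entered the test. Tubulin paralogs are close in sequence, and how reads shared between them were assigned is not given in the sources used here, so the split among paralogs is uncertain.

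The 4 matched genes left untested were at or next to zero: TUBA3C had no read in any library, TTLL2 had a read in 7 libraries, TTLL6 in 9 and TUBAL3 in 18. TUBAL3 had a median of 1.01 normalized reads and none of the 4 reached 10 in any library.

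Among the matched modifying enzymes, TTLL7, known in mouse as a polyglutamylase of beta-tubulin in neurons, had the highest median level, 650 normalized reads per kb. TTL, which restores the C-terminal tyrosine of alpha-tubulin, stood at 152 per kb and varied least of the 43 tested genes. Its residual SD, the spread left after category and cohort were fitted, was 0.084 on the log2 scale. Below these came TTLL12 (111 per kb), the glutamylases TTLL4 (79.4), TTLL5 (76.5), TTLL11 (56.0) and TTLL9 (25.6), and TTLL13 (7.15). TTLL13, a glutamylase in mouse, was counted at 6.29 to 21.2 normalized reads per library and passed 10 in 23 of 30 libraries. Of the cofactors that fold and join tubulin dimers, TBCB was at 779 per kb, TBCE at 263, TBCC at 166 and TBCA at 40.7.

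Proteins that bind dimers or filaments held the highest levels per kb. STMN1 led with 3806 per kb, and the neuronal stathmins STMN2 and STMN4 were at 2276 and 865. MAP2 had a median of 2927 per kb, MAP1B 2422 and MAP1A 2230, all large proteins that decorate neuronal microtubules. MAPT stood lower at 806 per kb, and MAP4, found in many cell types, at 331. MAP7, a recruiter of kinesin, was at 266, MAP6, a stabiliser, at 198, and MAP1S at 164. The plus-end proteins MAPRE2, MAPRE3 and MAPRE1 had 988, 574 and 209 per kb, and the EML proteins ran from EML2 (330) through EML6 (124) and EML4 (118) to EML3 (44.5).

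**Figure D1:**
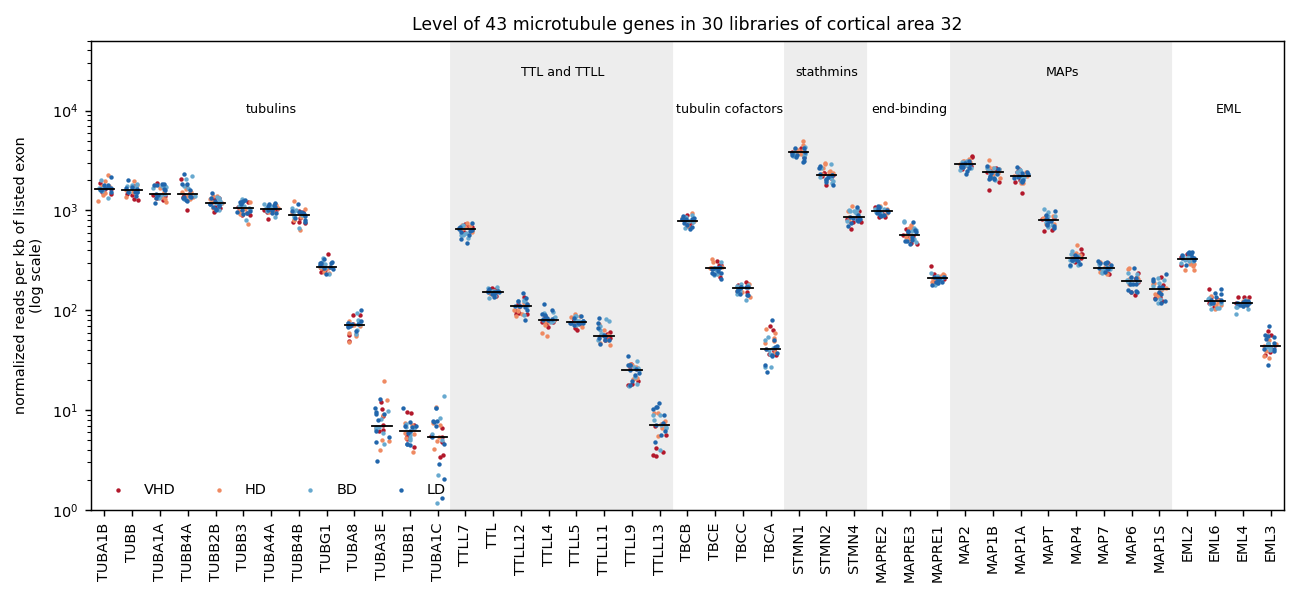
Level of each of the 43 tested genes in normalized reads per kb of listed exon (log axis), grouped by role; each point is 1 library coloured by drinking category and the black line is the median of 30 libraries. The levels run from 3806 per kb for STMN1 to 5.39 for TUBA1C, and the 4 colours are mixed within nearly every gene.

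Animals differed little in these genes. For the 37 genes with a median of 100 normalized reads or more, the median residual SD was 0.161 on the log2 scale, against 0.177 over all 9289 tested genes of that depth. MAP7, MAPRE2 and EML4 had residual SDs of 0.102, 0.104 and 0.099, near that of TTL, while TUBB4A (0.286) and MAP1S (0.294) were the most variable of the 37. TUBB4A spanned 2354 to 5331 normalized reads, a 2.26-fold range, whereas TTL spanned 434 to 561, a 1.29-fold range.

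Very heavy drinkers were set against low drinkers to compare the ends of the intake scale. No matched gene passed the test, the smallest adjusted p being 0.948 (limma on log2 of the value plus 1, all 30 animals, cohort in the model, Benjamini-Hochberg over 12935 genes), and 2 of 43 had an unadjusted p under 0.05 by limma as by edgeR. That is 4.65% of the matched genes, beside 3.5% of all tested genes at the same limit (1.76% higher and 1.74% lower). The median difference of the 43 genes was -0.04 log2 units, with 16 above 0 and 27 below, and that of all tested genes was -0.000328. Above 0 were 37.2% of the 43 genes, beside 49.9% of all tested genes.

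The low-count ligase gene TTLL13 gave the smallest p of this comparison. It had 6.29, 7.23 and 12.6 normalized reads (lowest, median and highest) in VHD and 8.65, 14.7 and 21.2 in LD. All 6 VHD animals lay below the LD median, yet the groups overlapped between 8.65 and 12.6. The difference was -0.96 ± 0.28 log2 units (SE, limma adjusted p = 0.948, unadjusted p = 0.00183) and rests on few reads, with a median of 11 over all libraries. With any 1 library left out it was -1.04 to -0.87.

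MAP4 was the other gene under the unadjusted limit. Its lowest, median and highest values were 886, 1029 and 1196 in VHD and 816, 927 and 1042 in LD, and 5 of 6 VHD animals exceeded the LD median while the ranges overlapped. The difference was 0.22 ± 0.10 (limma, unadjusted p = 0.0305, adjusted p = 0.948), but 0.11 with p = 0.428 within cohort 7a, where both categories occur.

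The classical neuronal genes did not separate the ends of the scale. MAP2 had 14014, 15555 and 18737 normalized reads in VHD and 12515, 14793 and 16589 in LD, a difference of 0.15 ± 0.08 with 5 of 6 VHD animals above the LD median (unadjusted p = 0.0637). MAPT had 3478, 4343 and 4869 in VHD against 3681, 4318 and 5519 in LD, a difference of -0.01 ± 0.12. TUBA1A had 2463, 2704 and 3629 in VHD against 2269, 3115 and 3516 in LD (-0.02 ± 0.11). For TUBA1A 5 of 6 VHD animals lay below the LD median, while the difference fitted with cohort in the model was near 0. TUBB3 differed by -0.09 ± 0.13, STMN2 by 0.05 ± 0.11 and TTL by 0.04 ± 0.07, each less than its SE. All 6 of these genes had a limma adjusted p of 0.948 or above, and the sign for MAPT, TUBA1A, TUBB3 and STMN2 turned under at least 1 alternative setting.

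In heavy drinkers no gene passed adjustment over all genes either, the smallest adjusted p being 0.2 (limma). At an unadjusted p under 0.05 there were 10 of 43 genes by limma and 10 by edgeR, 6 higher in HD (STMN1, STMN2, STMN4, MAP1B, MAP2 and MAP4) and 4 lower (EML2, TTLL4, TUBA8 and EML6). This is 23.3% of the matched genes, beside 12.5% of all tested genes (5.87% higher and 6.68% lower). The median difference was -0.01 over the 43 genes, 20 being above 0 (46.5%, beside 50.5% of all tested genes) and 23 below.

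EML2, a member of a family first described in echinoderms, gave the smallest p of all 43. Its lowest, median and highest values were 735, 836 and 954 normalized reads in HD, against 814, 1010 and 1107 in LD. All 7 HD animals lay below the LD median, and the groups overlapped between 814 and 954. The difference was -0.32 ± 0.07 log2 units (limma adjusted p = 0.2, unadjusted p = 4.54e-05). It was -0.35 to -0.30 with any 1 library left out.

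The 3 matched stathmin genes lay on the higher side. STMN1 had 5464, 6058 and 7499 in HD and 4631, 5372 and 6363 in LD, a difference of 0.20 ± 0.07 (adjusted p = 0.317 by limma), with all 7 HD animals above the LD median. By cohort, the medians of STMN1 were 5391 in cohort 4, 6087 in cohort 5, 6324 in cohort 7b and 5487 in cohort 7a. STMN2, whose protein is found in growth cones and regenerating axons, had 4376, 4700 and 5603 in HD and 3393, 4178 and 5320 in LD (0.26 ± 0.09, adjusted p = 0.317). Again all 7 HD animals lay above the LD median, and the ranges overlapped. STMN4 had 1025, 1253 and 1460 in HD and 926, 1089 and 1421 in LD (0.23 ± 0.09), with 5 of 7 HD animals above the LD median.

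The dendritic protein gene MAP2 had 15602, 16635 and 17662 in HD and 12515, 14793 and 16589 in LD, a difference of 0.18 ± 0.07 (adjusted p = 0.317 by limma). Every HD animal exceeded the LD median here, and the lowest HD value lay inside the LD range. MAP4 had 936, 1026 and 1287 in HD and 816, 927 and 1042 in LD (0.23 ± 0.08), with the same 7 of 7. MAP1B had 24975, 30899 and 38058 in HD and 24655, 26021 and 32760 in LD (0.22 ± 0.10, adjusted p = 0.354), with 6 of 7 above the LD median.

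Lower in HD was TTLL4, with 265, 372 and 386 normalized reads in HD and 382, 401 and 556 in LD. The overlap was narrow, from 382 to 386, all 7 HD animals lying below the LD median, and the difference was -0.28 ± 0.09 (limma adjusted p = 0.317, unadjusted p = 0.00659). TUBA8 had 102, 126 and 166 in HD and 132, 152 and 212 in LD (-0.29 ± 0.13, adjusted p = 0.375). EML6 had 814, 941 and 1080 in HD and 929, 993 and 1270 in LD (-0.15 ± 0.07, adjusted p = 0.38). For TUBA8 6 of 7 HD animals and for EML6 5 of 7 lay below the LD median.

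Library number was unevenly spread: 4 of 7 HD libraries carried 1 of the first 8 numbers, against 1 of 10 LD libraries. With 4 sets of successive library numbers added to the model, 5 of the 10 genes kept an unadjusted p under 0.05, with differences of -0.24 for EML2, -0.26 for TTLL4, 0.15 for STMN1, 0.19 for MAP4 and -0.14 for EML6. The 10 genes had been picked at that limit in the same animals. Counted anew in that fit, 6 of the 43 genes were under the limit, beside 4.61% of all tested genes. That share was 12.5% without the sets. MAP1B then differed by 0.10 (p = 0.165) and TUBA8 by -0.11 (p = 0.393). Without the single library HD replicate 3, MAP1B had an unadjusted limma p of 0.159, STMN4 of 0.0857 and TUBA8 of 0.228. Marker sums of oligodendrocytes were 3377 to 5886 in HD (median 4816) and 3910 to 10447 in LD (median 5211), and their part in the differences was not tested.

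**Figure D2:**
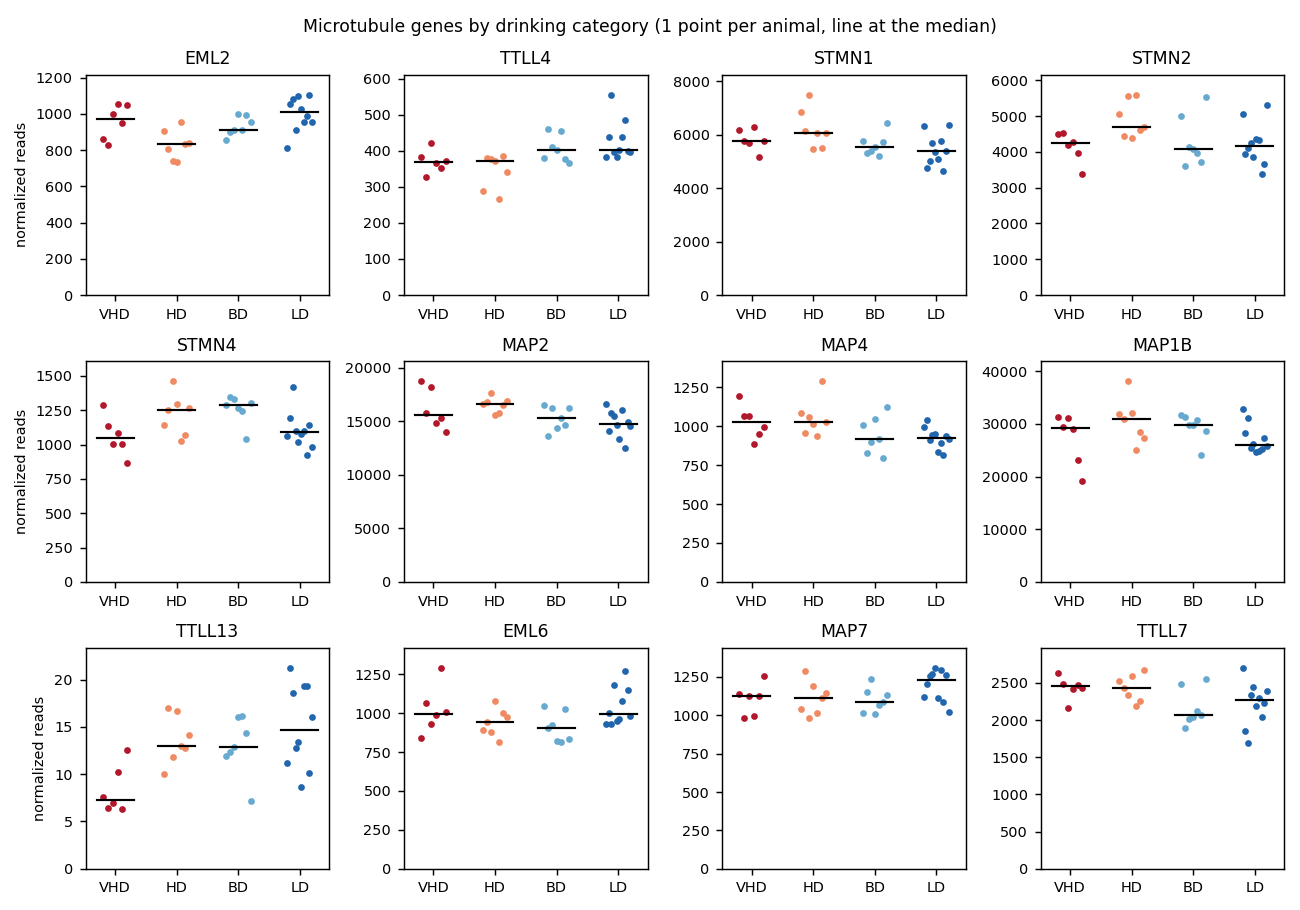
Normalized reads of 12 genes by drinking category; each point is 1 animal (VHD n = 6, HD n = 7, BD n = 7, LD n = 10), the line is the median, and each vertical axis starts at 0. All 7 HD animals lie below the LD median for EML2 and TTLL4 and above it for STMN1, STMN2, MAP2 and MAP4, all 6 VHD animals lie below it for TTLL13, and in every panel the groups overlap.

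Binge drinkers had 4 of 43 genes at an unadjusted p under 0.05 by limma and by edgeR, 1 higher and 3 lower, and none after adjustment (smallest adjusted p 0.999). That is 9.3% of the matched genes, beside 3.05% of all tested genes (1.56% higher and 1.48% lower). MAP7 had 1007, 1087 and 1237 normalized reads in BD and 1024, 1230 and 1306 in LD, a difference of -0.16 ± 0.06, with 6 of 7 BD animals below the LD median. EML6 had 817, 903 and 1047 in BD and 929, 993 and 1270 in LD (-0.17 ± 0.07), with 5 of 7 below. The ranges overlapped for both.

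EML2 had 855, 912 and 999 in BD and 814, 1010 and 1107 in LD, a difference of -0.14 ± 0.06, all 7 BD animals lying below the LD median and inside the LD range. Without the 6 shallow libraries, 3 of them BD, its difference was -0.10 (limma p = 0.236), and that of EML6 had p = 0.058. STMN4 had 1040, 1286 and 1350 in BD and 926, 1089 and 1421 in LD (0.20 ± 0.08), 6 of 7 BD animals being above the LD median. Its p was 0.125 within cohort 4, and that of MAP7 was 0.0751 without the cohort term. All 4 genes had an adjusted p of 0.999 by limma. The VHD, HD and BD differences share the same 10 LD animals, so values of EML2 below 0 in each of them, -0.15 ± 0.08 in VHD, -0.32 in HD and -0.14 in BD, are not separate observations.

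**Figure D3:**
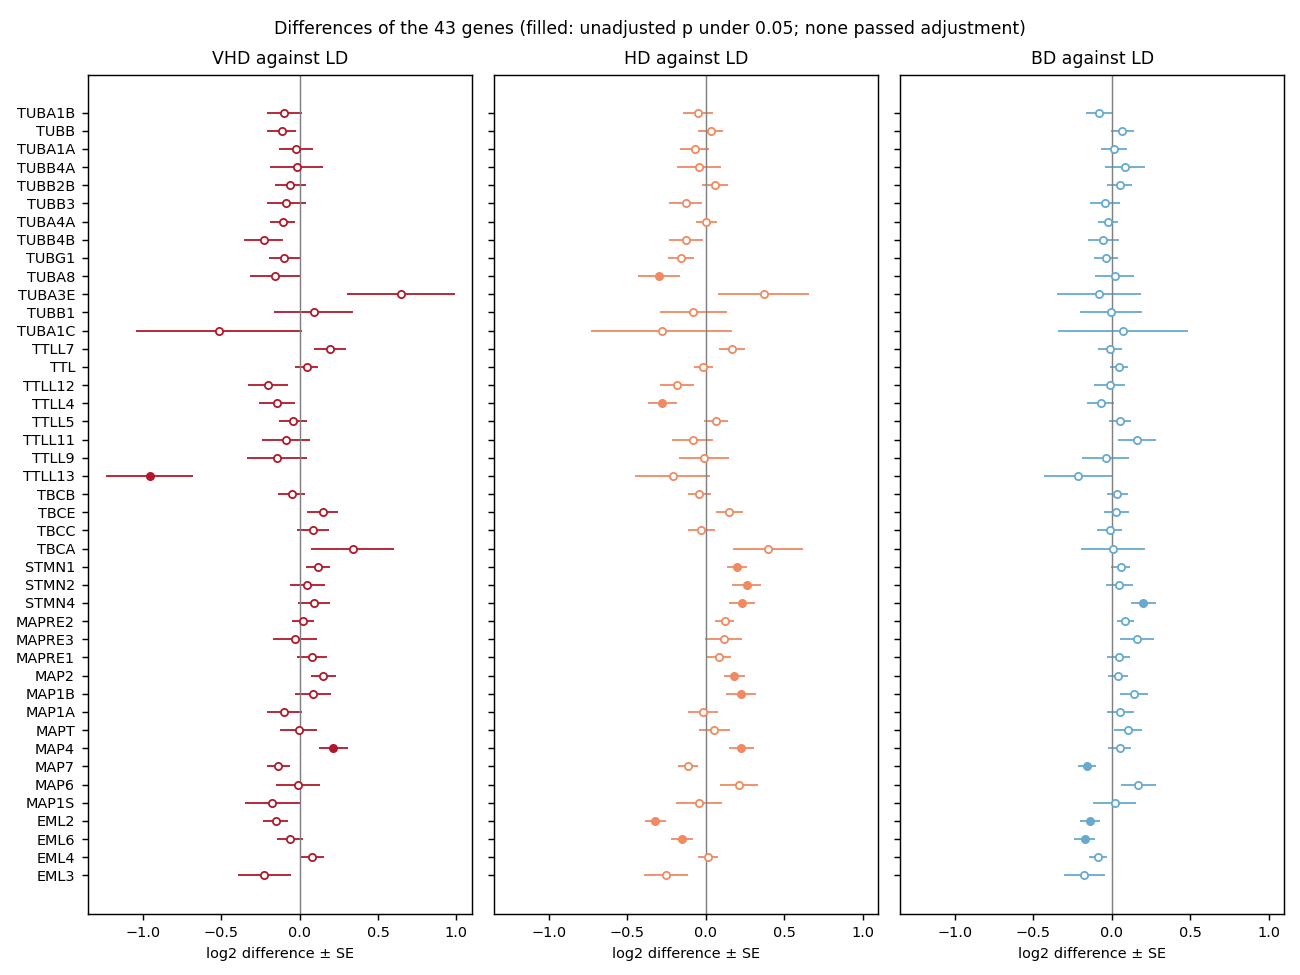
Log2 difference ± SE (limma, cohort in the model) of the 43 genes in VHD, HD and BD, each against LD; filled points have an unadjusted p under 0.05. There are 2 filled points for VHD, 10 for HD and 4 for BD, none passed adjustment, and wide bars mark the low-count genes TUBA1C, TUBA3E and TTLL13.

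A slope over LD, BD, HD and VHD, taken as equal steps, was fitted to ask whether a level moved with intake category. At an unadjusted p under 0.05 there were 6 of 43 genes (14%; 7 by edgeR), beside 6.18% of all tested genes (3.12% with a positive and 3.06% with a negative slope), and none after adjustment (adjusted p = 0.745 for each of the 6, limma). Slopes per step were 0.08 ± 0.03 log2 units for MAP4, 0.06 ± 0.03 for MAP2, 0.07 ± 0.03 for TTLL7 and 0.05 ± 0.03 for STMN1. The 2 negative slopes were -0.27 ± 0.09 for TTLL13 and -0.08 ± 0.03 for EML2. Medians did not climb evenly with category. From LD through BD and HD to VHD, the medians of TTLL7 were 2266, 2075, 2433 and 2456, and those of TTLL13 were 14.7, 12.9, 13.0 and 7.23.

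A test of any difference among the 4 categories had 9 of 43 genes at an unadjusted p under 0.05 by limma and by edgeR (20.9%), beside 5.62% of all tested genes, and none after adjustment (adjusted p = 0.861 for each). EML2 had the smallest p, 0.000492, followed by TTLL13 with 0.0115. The others were STMN4, STMN2, EML6, STMN1, MAP4, MAP7 and TTLL4, so no tubulin was among the 9.

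Other genes of the microtubule system were listed by role: motors, severing enzymes, further modifying enzymes, folding chaperonins, nucleating factors, kinases and other binding proteins. Of 106 listed genes 93 were tested. In HD against LD, 16 of the 93 had an unadjusted p under 0.05 (17.2%), 12 higher and 4 lower, none after adjustment, beside 12.5% of all tested genes. The kinesin gene KIF21A differed by 0.19 ± 0.06 (limma adjusted p = 0.314), APC, a plus-end protein, by 0.21 ± 0.07 and the dynein chain gene DYNC1LI1 by 0.18 ± 0.06. In VHD 0 of 93 and in BD 1 of 93 were under that limit, beside 3.5% and 3.05% of all tested genes. Median differences of the list were 0.0189 in VHD, 0.0631 in HD and 0.0165 in BD, beside -0.000328, 0.00267 and 7.67e-05 over all tested genes.

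Cohorts were compared with category in the model, and they differ in age. For any difference among the 4 cohorts, 6 of 43 genes (14%) had an unadjusted p under 0.05 by limma and 5 by edgeR, beside 8.04% of all tested genes, and none passed adjustment. EML6 was lowest with p = 0.00106 and an adjusted p of 0.291, and the others were MAP7, TBCB, STMN1, TUBA1A and EML2.

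Cohort 4, the oldest, and cohort 7a, the youngest, differed at an unadjusted p under 0.05 in 3 of 43 genes (6.98%) by limma and by edgeR, beside 9.15% of all tested genes (4.94% higher and 4.21% lower in cohort 4), with none after adjustment. Differences were above 0 for 30 of the 43 genes (69.8%, beside 51.8% of all tested genes) and below 0 for 13. EML6 had 817, 929 and 1146 normalized reads in cohort 4 and 998, 1071 and 1288 in cohort 7a, a difference of -0.21 ± 0.07 (limma adjusted p = 0.262), 7 of 9 animals of cohort 4 lying below the median of cohort 7a. TUBA1A, the main alpha-tubulin of growing neurons, had 2514, 3161 and 3515 in cohort 4 and 2269, 2631 and 3242 in cohort 7a (0.19 ± 0.09, adjusted p = 0.51). Here 8 of 9 animals of cohort 4 exceeded the median of cohort 7a, although the ranges overlapped widely. TTL had 434, 492 and 515 in cohort 4 and 494, 512 and 561 in cohort 7a (-0.12 ± 0.06, adjusted p = 0.535). Cohort 4 holds 4 of the 6 shallow libraries and cohort 7a holds 1, and without these 6 TTL differed by -0.06 (limma p = 0.347) and TUBA1A by 0.16 (p = 0.146). In the wider list 7 of 93 genes (7.53%) had an unadjusted p under 0.05, among them TPPP3, a gene that promotes tubulin polymerisation, with 1.08 ± 0.27 (adjusted p = 0.147). Oligodendrocyte marker sums had a median of 6533 normalized reads in cohort 4 (highest 19105) and 4898 in cohort 7a (highest 6364), and their part in these differences was not tested. Whether the category slope differed between cohorts was tested as an interaction: 0 of 43 genes had an unadjusted p under 0.05 by limma or edgeR, beside 2.24% of all tested genes.

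The exon table shows how reads were spread within a gene, and in MAP2 and MAPT most reads fell in 1 long exon. MAP2 has 12 listed exons, and that of 3911 bases (chromosome 2b, 97517971 to 97521881, positions as in the exon names) held 61.9% of the gene's reads. All listed exons of MAP2 sum to 5358 bases, so this share goes with length. Per kb the long exon had 2470 normalized reads, against 7820 in the exon of 78 bases. MAPT has 9 listed exons, and that of 4363 bases (chromosome 17, 54449484 to 54453846) held 76.0%. The other 8 exons of MAPT, 56 to 305 bases long, held 0.576% to 4.29% each. The level in these exons reached 1930 normalized reads per kb, at the exon of 66 bases, against 777 per kb in the long one.

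Exon shares, the log2 ratio of an exon to its gene, were tested for 384 exons in 38 of the genes, together with all 118342 tested exons. None passed adjustment in any comparison. At an unadjusted p under 0.05 there were 15 in VHD (3.91% of the 384, beside 3.66% of all exons), 32 in HD (8.33%, beside 7.07%) and 14 in BD (3.65%, beside 6.07%). The slope over categories had 21 (5.47%, beside 4.56%) and cohort 4 against cohort 7a had 22 (5.73%, beside 5.26%). The share was below that of all exons in BD and slightly above it in the other comparisons.

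In MAP7, an exon of 224 bases (chromosome 6, 130723031 to 130723254) had the smallest p for VHD and for the slope. It held 4.55%, 5.79% and 7.03% of MAP7 reads (lowest, median and highest) in VHD, 4.79%, 6.36% and 6.62% in HD, 3.79%, 5.36% and 6.59% in BD and 3.62%, 4.72% and 6.18% in LD. The difference in share was 0.49 ± 0.14 log2 units in VHD against LD (limma adjusted p = 1) and 0.41 ± 0.12 in HD against LD (adjusted p = 0.675), and the groups overlapped. A MAPT exon of 150 bases (chromosome 17, 54388050 to 54388199) held 2.67%, 3.08% and 4.06% in HD and 1.89%, 2.56% and 2.96% in LD, a difference of 0.35 ± 0.10 (adjusted p = 0.675).

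A shorter MAP7 exon of 78 bases (chromosome 6, 130655772 to 130655849) had the smallest p between cohorts 4 and 7a. It held 1.48%, 2.14% and 2.52% of MAP7 reads in cohort 4 and 2.17%, 3.95% and 4.99% in cohort 7a, so the ranges overlapped narrowly. The difference was -1.01 ± 0.20 (limma unadjusted p = 3.57e-05, adjusted p = 0.813), on medians of 26.8 normalized reads in cohort 4 and 45.4 in cohort 7a. By category its median share was 2.56% in VHD, 3.84% in HD, 2.52% in BD and 2.24% in LD. The exon of 224 bases described above had medians of 5.36% in cohort 4 and 5.14% in cohort 7a.

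Relations between the genes from animal to animal went in both directions. Over the 37 genes with a median of 100 or more there are 666 pairs, and their median absolute Pearson r over 30 animals was 0.285, beside 0.229 over all pairs of 9289 genes. With the sign kept, the median r was 0.047 for the 666 pairs and 0.001 for all gene pairs. An absolute r of 0.6 or more was found in 7.51% of the 666 pairs and in 4.98% of all gene pairs. By permutation of animals (100000 resamples) with adjustment over the 666 pairs, 164 had an adjusted p under 0.05, 113 positive and 51 negative, of which 128 also passed with Spearman's rho. The same count was not made over all gene pairs.

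The strongest pairs joined MAP1A, TUBB4A, MAPT and MAPRE3. MAP1A and TUBB4A had r = 0.89 and rho = 0.904 (n = 30, permutation adjusted p = 0.000333 and 0.000444), r = 0.854 without the 2 animals farthest from the median of MAP1A, and r = 0.96, 0.908 and 0.699 within cohorts 4, 5 and 7a. Cohort 7b, with 5 animals, is too small for a value of its own. MAPRE3 and MAPT had r = 0.865 and rho = 0.844 (same adjusted p), with 0.953, 0.821 and 0.759 within cohorts 4, 5 and 7a. MAPT and TUBB4A had r = 0.823 and rho = 0.771, with r = 0.455 within cohort 7a.

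Negative pairs centred on TTLL7, which had 14 negative partners among 36, against 4 positive ones. TTLL7 and MAP1S had r = -0.729 and rho = -0.727 (n = 30, permutation adjusted p = 0.000333 and 0.000444) and r = -0.651 without the 2 farthest animals. Within cohorts 4 and 7a this pair had r = -0.883 and -0.757, but in cohort 5 only -0.299. TTLL7 and TUBB4A had r = -0.658 over the 30 animals and 0.024 in cohort 5, a value from 8 animals and so imprecise. Whether the relation differed between cohorts was not tested. EML2 and MAPRE2 had r = -0.635 and rho = -0.559 (permutation adjusted p = 0.00351 and 0.0146), with -0.358, -0.771 and -0.649 within cohorts 4, 5 and 7a. TUBB and TUBB4A had the most positive partners, 13 each, and TTLL5 had none in either direction.

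**Figure D4:**
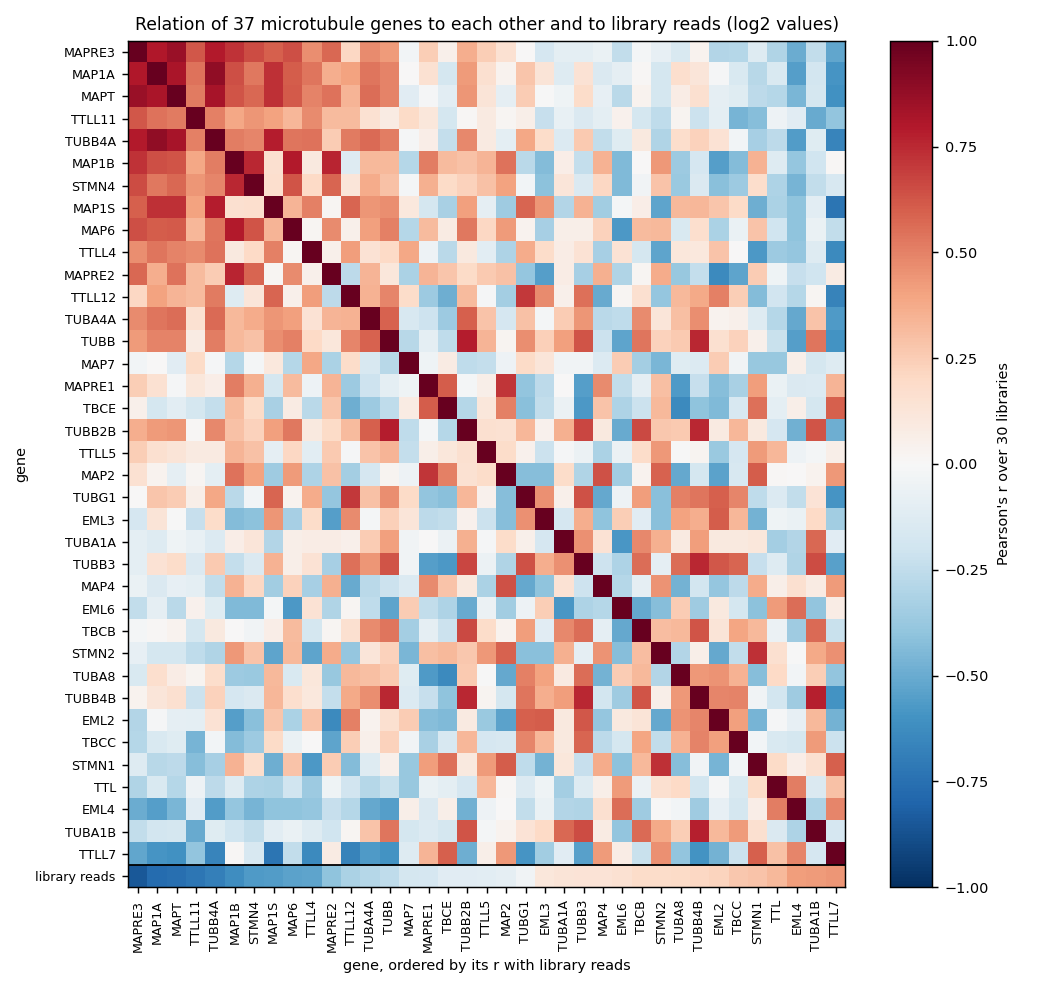
Pearson's r over 30 libraries between log2 values of 37 genes, ordered by their r with log2 library reads, which is the bottom row; red is positive and blue negative. MAPRE3, MAP1A, MAPT, TTLL11 and TUBB4A form a red block at 1 end, where the bottom row is most negative, and TTLL7 has the most blue cells.

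Some of these genes moved with sequencing depth. Of 37 genes, 11 were related to log2 library reads at an adjusted p under 0.05 (permutation, adjusted over 37), 10 negatively and TTLL7 positively, and 16.2% had an absolute r of 0.6 or more, beside 9.01% of all tested genes. The median absolute r was 0.272 for the 37 genes and 0.28 for all tested genes. For TTLL7 r was 0.439 (permutation adjusted p = 0.0477) but rho 0.347 (adjusted p = 0.173), and r was 0.255 without the 2 farthest libraries and 0.856, -0.087 and -0.095 within cohorts 4, 5 and 7a. MAPRE3 had r = -0.85 and rho = -0.822 (n = 30, permutation adjusted p = 0.000185 for each), r = -0.804 without the 2 farthest libraries, and -0.82, -0.933 and -0.878 within cohorts 4, 5 and 7a. Its values were 1133 to 1330 normalized reads in the 6 shallow libraries and 778 to 1218 in the other 24. MAP1A had r = -0.768, MAPT -0.751, TTLL11 -0.72 and TUBB4A -0.687 (permutation adjusted p of 0.000222 or below for each).

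Depth and the pairs above cannot be told apart where they move together, and the pairs were also computed without the 6 shallow libraries. MAP1A and TUBB4A then had r = 0.864, MAPRE3 and MAPT 0.794, and TTLL7 and MAP1S -0.676. TTLL7 and TUBB4A, at -0.658 over all libraries, had -0.428, TTLL7 and TTLL12 -0.486, and TTLL7 and TTLL4 -0.429. The relation to depth was itself present in the 24 deeper libraries, with r = -0.702 for MAPRE3 and -0.671 for MAP1A. Of the 10 genes named for HD, 5 had r with depth of 0.22 (EML2), 0.284 (STMN1), 0.186 (STMN2), 0.139 (MAP4) and -0.093 (MAP2) over 30 libraries, with adjusted permutation p of 0.269 or above. Within cohort 4, however, r was 0.877 for STMN1, 0.694 for MAP4 and 0.628 for STMN2, against 0.014, -0.274 and -0.162 in cohort 5. Related to depth over all libraries were MAP1B (r = -0.622), STMN4 (-0.569) and TTLL4 (-0.531), with adjusted permutation p of 0.00784 or below, and the part of depth in their differences was not tested.

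**Figure D5:**
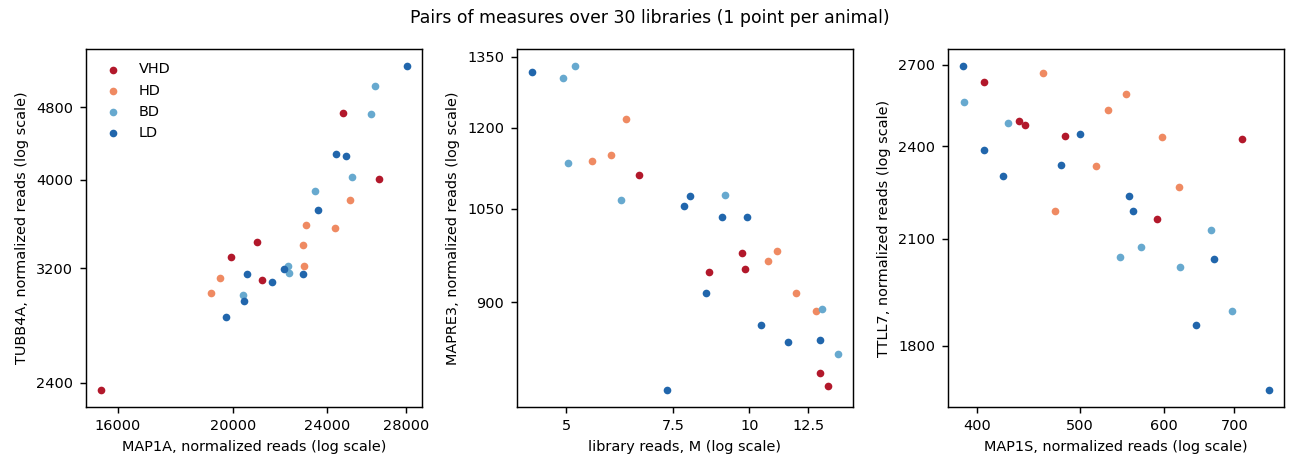
Each point is 1 animal coloured by drinking category, on log axes: TUBB4A against MAP1A, MAPRE3 against library reads in M, and TTLL7 against MAP1S, genes in normalized reads. The points follow a line with r = 0.89, -0.85 and -0.729, and the 4 categories are spread along each line.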

How the data were processed

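The gene and exon tables deposited by the authors hold a normalized signal, reads per gene or exon scaled to a common upper quartile in each library. Libraries were stranded and depleted of ribosomal RNA, per the labels' protocols, and STAR 2.3.0e, CASAVA, FastQC and edgeR are named, per the submitters' processing notes. The genome build, annotation and read counter were not given in the sources used here. Exons carry the positions that their names in the table state. Dividing by the value of 1 read gave whole numbers within 0.01 for 100% of the values; in 1 library of the gene table and 2 of the exon table a read is worth close to 1 normalized read, so that this step is less certain there.

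All 30 libraries, 1 per animal, entered each fit. Log2 of the value plus 1 was tested with limma 3.58.1 (R 4.3.3; eBayes with a mean trend) on 12935 genes, category and cohort in the model, at a Benjamini-Hochberg adjusted p of 0.05 over all tested genes; a difference on this scale understates that of low genes. Differences are VHD, HD or BD over LD, or cohort 4 over cohort 7a. edgeR 4.0.16 (quasi-likelihood, TMM) on the recovered reads was an alternative. Exon shares were fitted likewise, for exons with 5 normalized reads or more in 6 libraries. Residual SDs come from the same model, levels per kb divide by the summed length of a gene's listed exons, and correlations use log2 values in scipy 1.17.1 (Python 3.11.15), 1e-05 being the smallest permutation p possible. The counts of genes rest on 4.392 to 13.985 M reads (M, 1000000) per library, which sets their precision.

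The members, gene lists and tests were chosen with earlier results of these data known, so no list was given a test or a p of its own. Differences are named for matched genes at an unadjusted p under 0.05, for 6 neuronal or tyrosination genes in VHD whatever their value, for up to 4 other microtubule genes per comparison, and for exons from the 3 smallest p of each comparison; not every gene or exon within the rule is printed. The pairs named are the 5 highest and the 5 lowest r, of which some are described. Alternatives were pseudocounts of 0.25 and 4, no minimum or one of 100, scaling by median ratios, array weights, omission of the other term, 4 sets of library numbers, edgeR, each library left out, and fits within cohort 7a or 4; for exons, a minimum of 20 and a pseudocount of 4. Leaving out the 6 libraries under 6 M reads was chosen after the data were seen. The fits were also run on simulated data. The outcome is not given here, so their power for differences of the sizes above is not stated.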

Additional observations from a re-analysis of the deposited data

Results flagged for a closer look

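In 72 groups of 6 to 10 animals, formed by the named genes and the 4 categories, 5 values from 4 animals lay far from the rest of their group, and chance alone flags about 1 in 20 groups. In BD, replicate 6 had the lowest MAP1B, 24138 normalized reads where the next animal had 28562, and also the lowest STMN4, 1040 where the next had 1248. BD replicate 7 had the lowest TTLL13, with 7.21 normalized reads against 11.9 in the next. VHD replicate 1 had the highest TUBA1A of its category, 3629 against 2771 in the next animal. LD replicate 6 had the highest TUBA8 of the low drinkers, 212 against 167 in the next.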

How the results depend on the processing

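No gene of the 43 and none of their exons passed adjustment in any comparison under any alternative run. Numbers of the 43 genes at an unadjusted p under 0.05 moved as follows. For VHD (2) they were 1 with a minimum of 100 and 6 with array weights or within cohort 7a, and 1 to 6 with 1 library left out, moved by VHD replicates 1, 4, 5 and 6, HD replicate 2, BD replicates 1, 2 and 4 and LD replicates 1, 4 and 5. For HD (10) they were 17 with array weights, 6 with library sets and 7 to 16 with 1 library left out, 16 without LD replicate 1. For BD (4) they were 9 with array weights, 2 without the cohort term or without the 6 shallow libraries, and 3 to 6 with 1 left out. For the slope (6) they were 13 with array weights and 3 to 10 with 1 left out, 3 without HD replicate 3 and 10 without VHD replicate 5. For any category (9) they were 14 with array weights, 2 with library sets, and 4 to 10 with 1 left out, moved by VHD replicate 2, HD replicates 1, 3 and 7, BD replicate 6 and LD replicates 6, 7 and 8. For any cohort (6) the range was 5 to 8. For cohort 4 against 7a (3) they were 5 without the category term, 6 with library sets and 1 to 6 with 1 left out, 6 without HD replicate 6 and 1 without LD replicate 7. For the interaction (0) they were 5 with array weights, 2 with library sets or without the shallow libraries, and 0 to 2 with 1 left out. Shares of all tested genes moved too: with array weights they were 8.09% for VHD, 16.8% for HD, 10.6% for BD, 14.3% for the slope, 17.4% for any category and 4.67% for the interaction. With library sets they were 4.61% for HD, 2.91% for any category, 10.2% for cohort 4 against 7a and 3.96% for the interaction. For VHD the share was 5.6% within cohort 7a and 3.63% with a minimum of 100. Without the cohort term it was 2.99% for BD, and without the category term 13.6% for cohort 4 against 7a. Without the 6 shallow libraries it was 2.67% for BD and 3.63% for the interaction. Exons at that limit were 8 for BD (14) with a minimum of 20; with 1 library left out they were 9 to 20 in VHD (9 without VHD replicate 2), 26 to 46 in HD, 11 to 32 in BD (22 or more without BD replicate 7 or LD replicate 1, 2, 3 or 5), 12 to 26 for the slope (12 without VHD replicate 2) and 17 to 29 for the cohorts.

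Of 1250 differences of named genes under alternatives, 1227 kept their sign, and the 23 others were VHD differences near 0. Most of these genes were named for an unadjusted p under 0.05 in the same animals, so a kept sign is no separate support. TUBA1A turned to 0.0082 with array weights, 0.0028 with library sets and 0.0871 within cohort 7a; MAPT to 0.0026, 0.0213 and, without shallow libraries, 0.0039; STMN2 to -0.024 without the cohort term; TUBB3 to 0.0178 with library sets. With 1 library left out TUBA1A ranged from -0.0737 to 0.021, MAPT from -0.0541 to 0.0933 and STMN2 from -0.0007 to 0.0941. The cause of these moves was not tested. Library depth limits the low genes, TTLL13, TUBA3E and TUBA1C. No paired analysis was possible because the replicate numbers were given in accession order and pair no animals.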
